A study of Mus musculus with 4 samples.

Results

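Fibroblast growth factor (FGF) signalling was examined through 7 genes, the ligands Fgf2, Fgf7, Fgf10 and Fgf18 and the receptors Fgfr1, Fgfr2 and Fgfr3. They were taken by gene symbol from the 31053 genes in each of 4 single-cell count matrices, and every symbol matched 1 gene in every matrix. The cells came from the submandibular salivary gland of female C57BL6/J mice with no transgene named, and the suspension had been depleted of EpCAM-bearing epithelial cells, Ter119-bearing red cells and dead cells, so it was enriched for stroma. In the deligated group (2 libraries, age 14 weeks) a metal clip closed the gland ducts for 14 days and had been off for 5 days at harvest. The homeostatic group (2 libraries, age 12 weeks) had no surgery, so age and surgery cannot be told apart. The protocol also names the sublingual gland and does not say how many animals gave a library, so p-values measure the spread between libraries, which may be technical.

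FGFs are secreted proteins that bind receptor tyrosine kinases on neighbouring cells, with heparan sulphate chains as co-receptors, and signal largely through the adaptor Frs2 to the MAP kinase pathway. Fgf7 and Fgf10 are products of mesenchyme that act on the epithelial splice form of Fgfr2, and mice without Fgf10 or Fgfr2b fail to form salivary glands. Fgf2 is a growth factor of broad receptor choice held in the matrix, and Fgf18 acts best through the mesenchymal receptor forms. Gene-level counts do not separate the splice forms of a receptor.

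On GRCm38 (GENCODE M21), Fgf10 (ENSMUSG00000021732) lies on chromosome 13 from 118669791 to 118792115, with 117.72 kb of annotated intron. Fgf7 (ENSMUSG00000027208) lies on chromosome 2 from 126034658 to 126091185 with 53.28 kb of intron, and Fgf2 (ENSMUSG00000037225) on chromosome 3 from 37348346 to 37410108 with 54.98 kb. Fgf18 (ENSMUSG00000057967) lies on chromosome 11 from 33117430 to 33147400 with 28.78 kb. The receptor Fgfr1 (ENSMUSG00000031565) lies on chromosome 8 from 25513654 to 25575718 with 52.19 kb, and Fgfr3 (ENSMUSG00000054252) on chromosome 5 from 33721674 to 33737068 with 8.24 kb. Fgfr2 (ENSMUSG00000030849) stands apart: its model on chromosome 7 runs from 130162451 to 133123350, with 2950.57 kb of intron, because 1 of its 27 GENCODE transcripts spans 2960.9 kb. The next widest transcript spans 103.8 kb, and the RefSeq gene spans 104.4 kb (130162451 to 130266808). The wide Fgfr2 model overlaps 21 other listed genes on its own strand and 25 on the opposite strand. Fgf2 (Fgf2os, Nudt6), Fgf7 (Fam227b), Fgf10 (Gm16263) and Fgfr1 (Gm16159) overlap listed genes on the opposite strand only. Whether counting used strand, introns or which annotation release is not given in the sources used here.

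The ligands of epithelial Fgfr2, Fgf10 and Fgf7, are shown by the last 100 bases before their RefSeq starts (GRCm38.p6, plus strand), for Fgf10 chr13:118714599-118714698 and for Fgf7 chr2:126034558-126034657.
Fgf10: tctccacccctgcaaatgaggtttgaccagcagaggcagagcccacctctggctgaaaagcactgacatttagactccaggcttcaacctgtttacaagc
Fgf7: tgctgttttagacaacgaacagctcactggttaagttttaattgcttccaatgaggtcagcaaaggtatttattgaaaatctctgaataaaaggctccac
Over the 250 bases before the start, 61.2% of the Fgf10 bases and 43.6% of the Fgf7 bases were G or C, against a median of 52.4% over 32851 promoters. RefSeq promoters were matched for 6 of the 7 genes. The letters TATAAA, searched on both strands, were in none of those 6, and in 12.4% of all promoters of that length.

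The 4 libraries held 4725 to 13266 barcodes and 35662241 to 53898793 UMIs (unique molecular identifiers, each standing for a captured RNA molecule), with medians per barcode of 6075 and 5278 in the deligated and 2912.5 and 2765.5 in the homeostatic libraries. After filtering, 33695 cells fell into 32 clusters, made without the FGF genes and named by resemblance to marker sets. Pairs of libraries shared 14 to 54 barcodes, at most 0.482% of the smaller library. In the 5 classes tested below, clusters were nearly all of 1 group: fibroblast-like cells were cluster c3 in deligated and c16 in homeostatic libraries, mural-like cells c4 and c25, and endothelial-like cells c5 and c8 against c23, c24 and c27. Unnamed clusters held 6 and 27 deligated but 1175 and 1191 homeostatic cells, and epithelial-like clusters 46 and 129 against 3143 and 3444.

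The groups also differed by gene length, which bears on every change below. In fibroblast-like cells the median log2 fold change (deligated over homeostatic) was 0.32 for genes with up to 2 kb of intron, -0.26 for 30 to 100 kb and -1.07 above 100 kb. Genes above 100 kb took 8.57% and 8.27% of fibroblast-like UMIs in the deligated libraries, and 16.3% and 16.7% in the homeostatic ones. The file headers name Cell Ranger 6.0.1 for the deligated and 7.0.0 for the homeostatic libraries, so the version of the counting software and the group cannot be told apart. By default version 7.0.0 counts reads in introns and version 6.0.1 does not. The setting used for either group is not given in the sources used here, and its part in the differences was not tested. Fold changes over a whole class were therefore also computed after the trend of level on intron length was removed from each library, which was not done for the fibroblast-like subsets.

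**Figure D1:**
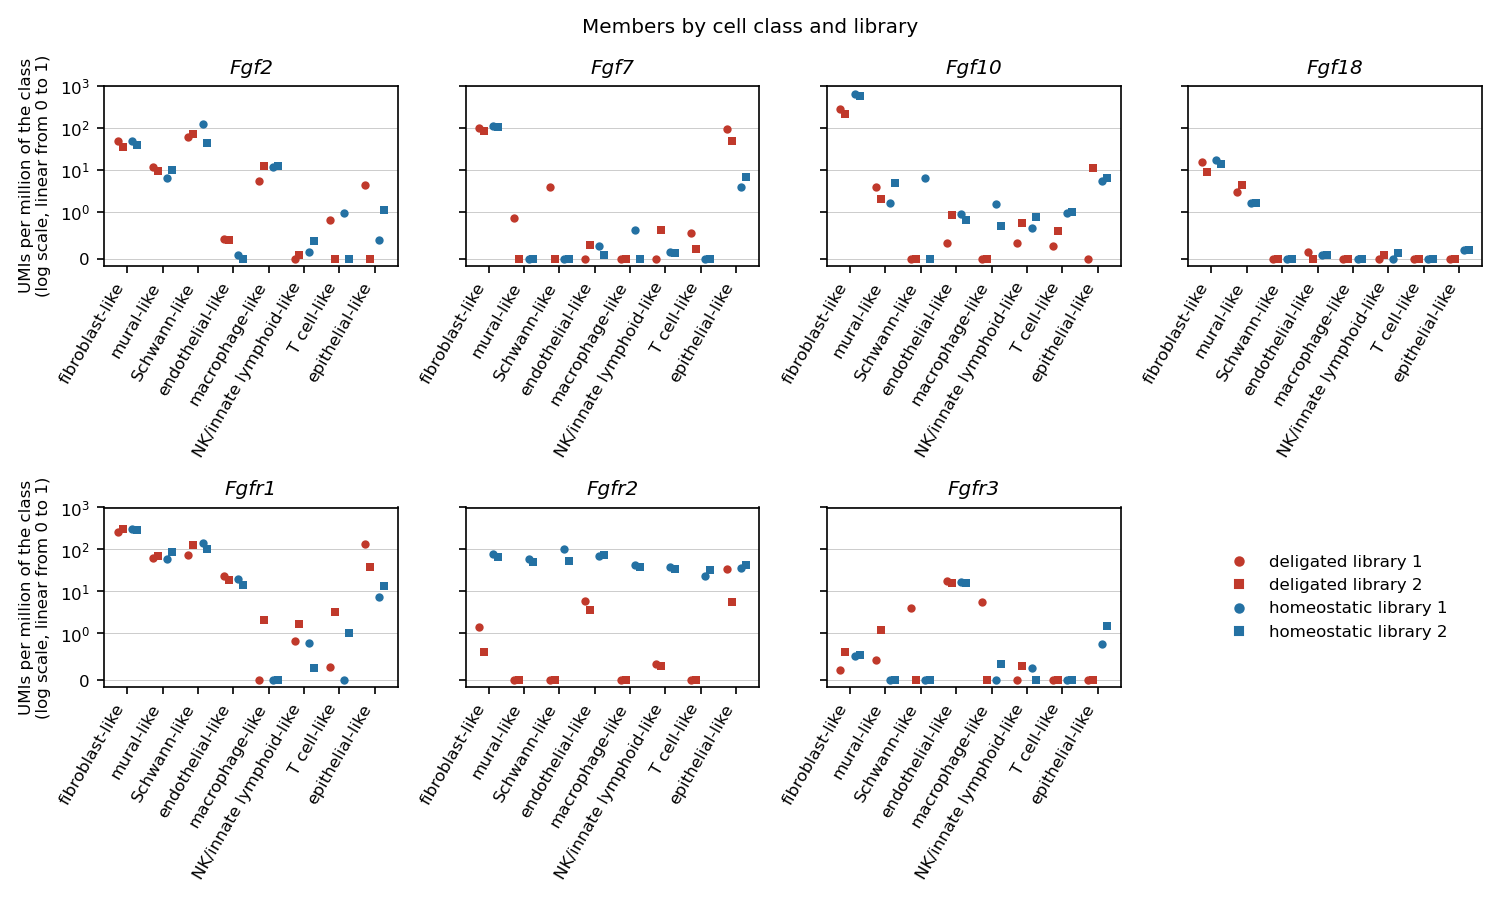
Level of each gene in CPM, its UMIs per 1000000 UMIs of a cell class (y axis, logarithmic above 1 and linear from 0 to 1) in 8 classes (x axis), with 1 point per library. Fgf10, Fgf7 and Fgf18 peak in fibroblast-like cells, Fgfr3 in endothelial-like cells, and Fgfr2 lies above 20 in every homeostatic class shown while 4 of the deligated classes shown are at 0.

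Fgf10, the ligand for epithelial Fgfr2b, was almost wholly a fibroblast-like product and was lower there after deligation. Its level, in CPM (UMIs of the gene per 1000000 UMIs of the class), was 288 and 221 in deligated libraries 1 and 2 and 641 and 591 in homeostatic libraries 1 and 2. Both homeostatic libraries lay above both deligated ones. The log2 fold change was -1.21 (SE 0.16, edgeR adjusted p = 0.00046, 2 libraries a group). With the intron-length trend removed it was -0.53 (edgeR adjusted p = 0.0389), the smallest change and the highest p over all settings tried, which ran from -1.46 to -0.53. Of all genes above 100 kb of intron, 70.7% passed the same test in these cells, with a median of -1.07, and the Fgf10 value lay close to that median. With the trend removed 45.2% of these genes were still called, 23.6% as lower. Their quartiles were then -0.70 and 0.50, and the corrected Fgf10 value lay between them. The RefSeq gene of Fgf10 spans only 77.9 kb, and genes with 30 to 100 kb of intron had a median of -0.26 with 29.8% passing. With the trend removed 22.0% of those were called, with quartiles of -0.37 and 0.33. With that span used in the trend, a setting added after the data were seen, Fgf10 was at -0.80 (edgeR adjusted p = 0.00707), so its corrected size also depended on the gene model.

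Fibroblast-like cells accounted for 98.8% and 97.6% of deligated Fgf10 UMIs and for 91.7% and 91.9% of homeostatic ones. After each cell was thinned to 1000 UMIs, 20.3% (95% Clopper-Pearson interval 16.2 to 24.8) and 19.1% (16.3 to 22.1) of deligated fibroblast-like cells had a Fgf10 UMI. The homeostatic shares were 44.5% (38.7 to 50.4) and 41.9% (36.0 to 48.0). Natural killer (NK)/innate lymphoid-like cells, which should lack the gene, had 0% to 0.0947% at the same depth, with interval bounds of at most 0.404% and median depths of 5548 to 6277 before thinning. Before thinning, 73.7% of deligated and 84.0% of homeostatic fibroblast-like cells had a Fgf10 UMI, at median depths of 13087 and 9256.5 against 6605 and 6624 UMIs. These intervals cover counting error only.

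Fgf10 was lower after deligation in both of the fibroblast-like subsets examined. Pi16 and Dpp4 mark adventitial, progenitor-like fibroblasts in many tissues. Among cells with a UMI of either, Fgf10 was at 180.3 and 211 CPM in deligated and 284 and 328 CPM in homeostatic libraries. Among cells with neither, it was at 369 and 227 against 714 and 646 CPM, and the log2 fold change was -1.15 (edgeR adjusted p = 0.0018). Over all fibroblast-like cells, genes above 100 kb of intron had a median of -1.07, and those with 30 to 100 kb had -0.26. No length-corrected value was computed for either subset, so the part of gene length in these differences was not tested. Within the homeostatic libraries the cells with neither marker had the higher Fgf10 level, and in deligated library 2 the subsets were close. Cells with a Pi16 or Dpp4 UMI made up 41.4% and 32.3% of deligated and 14.4% and 14.0% of homeostatic fibroblast-like cells, but 12.5% and 10.2% against 10.3% and 6.62% after thinning.

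Markers of other cells moved with the group inside the fibroblast-like class. The 12 epithelial markers summed to 19.4 and 46.6 CPM in deligated and 619 and 471 CPM in homeostatic libraries, with 2 or 3 of the 12 at 0. Epithelial-like cells of the homeostatic libraries had Fgf10 at 5.47 and 6.32 CPM, below either fibroblast-like subset. The 5 erythroid markers summed to 55.5 and 214 CPM against 396 and 3649.8 CPM, and erythroid-like cells held 1 Fgf10 UMI in all 4 libraries. Mural markers (9) summed to 568 and 589 against 381 and 373 CPM, Schwann markers (8) to 428 and 424 against 539 and 537 CPM, and T cell markers (8) to 11.7 and 49.8 against 1.55 and 0 CPM. Endothelial markers (8) summed to 147 and 292 against 306 and 346 CPM, and NK/innate lymphoid markers (8) to 6.47 and 101 against 6.21 and 1.61 CPM. The part of these markers in the Fgf10 difference was not tested. The 8 defining fibroblast markers were all detected in every library and summed to 41125 and 38353 against 27384 and 28081 CPM.

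**Figure D2:**
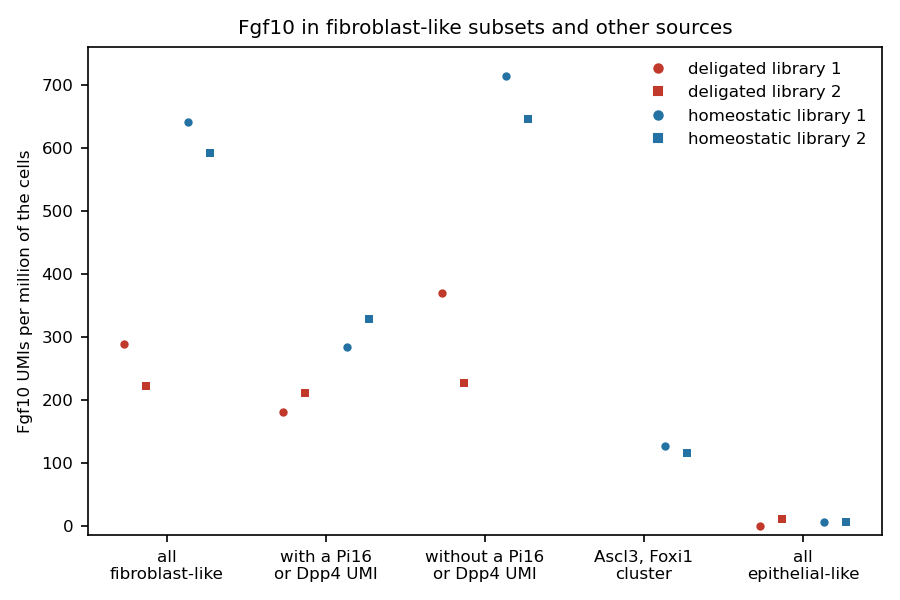
Fgf10 level in CPM (y axis, linear) in all fibroblast-like cells, in those with and without a Pi16 or Dpp4 UMI, in an unnamed cluster led by Ascl3 and Foxi1, and in epithelial-like cells, with 1 point per library. Homeostatic points lie above deligated points in all 3 fibroblast-like sets, and the unnamed cluster, plotted only where a library had at least 20 of its cells, stands at 126 and 115.

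One other source of Fgf10 appeared. An unnamed cluster (c14) was led by Ascl3 and Foxi1, transcription factors known from ionocyte-like duct cells of the salivary gland. In homeostatic library 1 it held 50 Fgf10 UMIs in 42 of 301 cells (126 CPM), and in homeostatic library 2 it held 38 UMIs in 33 of 292 cells (115 CPM). The deligated libraries had 1 and 9 such cells with no Fgf10 UMI, too few to compare. Fgf2, Fgf7 and Fgf18 had no UMI in this cluster in any library. The part of free RNA in the Fgf10 counts was not tested. The cluster's cells were shallow, with median UMI counts of 987 and 853 in the homeostatic libraries.

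Fgf7, the keratinocyte growth factor, shared the fibroblast-like source but did not pass the test. It was at 101 and 86.6 CPM in deligated and 111 and 104 CPM in homeostatic fibroblast-like cells, where both homeostatic values were slightly higher. On the log2 scale the fold change was -0.14 (SE 0.15, edgeR adjusted p = 0.52), and 0.13 with the trend removed. These cells accounted for 94.7% and 96.0% of deligated Fgf7 UMIs, and for 87.8% and 82.5% of homeostatic ones. After thinning to 1000 UMIs, of 290 and 272 homeostatic cells, 148 and 126 had either ligand and 16 and 5 had both. Of deligated cells 26.9% and 25.2% had either, against 51.0% and 46.3% of homeostatic cells.

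A small cluster of epithelial-like cells (c7), led by Krt14, Krt5, Trp63, Acta2 and Cnn1, a combination known from myoepithelial cells, was a further source of Fgf7. It held 18 and 6 deligated and 35 and 57 homeostatic cells. Its Fgf7 level was 120.1 and 235 CPM in deligated libraries (22 and 9 UMIs) and 58.3 and 65.2 CPM in homeostatic libraries (18 and 36 UMIs). The deligated values were higher but rest on few cells, and no test was made. The same cluster had Fgfr1 at 158 and 131 against 87.5 and 118 CPM, and Fgfr2 at 27.3 and 26.1 against 191 and 147 CPM. It held all or nearly all Fgf7 UMIs of the epithelial-like class, 31 of 31 in deligated and 54 of 56 in homeostatic libraries.

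Fgf2, the basic fibroblast growth factor, came from several classes. Fibroblast-like cells held 81.3% and 79.1% of its deligated UMIs but 48.7% and 43.9% of its homeostatic ones. In the homeostatic libraries macrophage-like cells held 20.2% and 22.0%, and unnamed clusters 16.1% and 20.1% (31 and 33 UMIs). Fibroblast-like cells had 48.0 and 36.1 CPM in deligated and 48.6 and 38.8 CPM in homeostatic libraries, and the groups overlapped. Its log2 fold change was 0.00 (SE 0.21, edgeR adjusted p = 0.996), and 0.28 with the trend removed (adjusted p = 0.374). Schwann-like cells, the glia of nerve fibres, had 59.9, 71.4, 127 and 43.5 CPM in deligated libraries 1 and 2 and homeostatic libraries 1 and 2, from 8 to 25 UMIs in 36 to 67 cells. The ranges over all libraries overlapped, but within each of the 4 libraries the Schwann-like level was the higher. That cluster (c6) also had cells richer in lymphatic than in Schwann markers, and none of those cells had a Fgf2 UMI. Its cells richer in Schwann markers had 91.6, 90.5, 138 and 57.8 CPM, all above the fibroblast-like values, and no test was made of this order.

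Below them, Fgf2 stood at 5.52 and 12.2 CPM in deligated and 12.1 and 12.6 CPM in homeostatic macrophage-like cells, and at 11.7 and 9.35 against 6.60 and 9.76 CPM in mural-like cells, the pericytes and smooth muscle of vessels. These ranges overlapped too. In mural-like cells the log2 fold change was 0.35 (SE 0.50, edgeR adjusted p = 0.756), and 0.48 with the trend removed. Endothelial-like cells had 13 deligated and 1 homeostatic Fgf2 UMIs over both libraries, or 0.408 and 0.0346 CPM, and Fgf2 was not tested there because it did not pass the filter on low counts. The summed fibroblast markers in those cells were 38.6 and 119 against 10.0 and 9.36 CPM, and their part in these few UMIs was not tested.

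Fgf18, a ligand best known from bone and lung, had 30 to 82 UMIs in a library. Fibroblast-like cells had 15.2 and 8.80 CPM in deligated and 17.6 and 14.0 CPM in homeostatic libraries, and the groups overlapped. For Fgf18 the log2 fold change was -0.36 (SE 0.33, edgeR adjusted p = 0.459), and -0.30 with the trend removed. Without deligated library 1 it was -0.82 (edgeR adjusted p = 0.039), and without deligated library 2 it was 0.07, so which deligated library was kept set its direction. Mural-like cells came next, with 3.03 and 4.47 CPM in deligated and 1.65 and 1.63 CPM in homeostatic libraries, from 7 and 11 against 1 and 1 UMIs.

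Among the receptors, Fgfr1 had its highest level in fibroblast-like cells and was not called in any class. Fibroblast-like cells had 261 and 300.2 CPM in deligated and 312 and 290 CPM in homeostatic libraries, with overlapping groups. The log2 fold change was -0.04 (SE 0.13, edgeR adjusted p = 0.84), and 0.23 with the trend removed (adjusted p = 0.25). Schwann-like cells had 75.8 and 131 against 140.1 and 103 CPM, and mural-like cells 62.7 and 69.5 against 59.4 and 87.9 CPM. Among the cells of c6 richer in Schwann markers Fgfr1 was at 42.8 and 123 against 144 and 108 CPM, because 12 of the 19 UMIs of deligated library 1 were in 8 cells richer in lymphatic markers. Schwann-like and mural-like cells overlapped in level, and both lay below the fibroblast-like range. Epithelial-like cells, also below that range, had 135 and 38.3 against 7.23 and 13.4 CPM. Cluster c7 held 29 of their 31 UMIs in deligated library 1 and 5 of 7 in deligated library 2. B cell-like cells had 11.4 and 19.1 against 19.9 and 52.9 CPM, from 3 to 12 UMIs. The mural-like log2 fold change was -0.17 (SE 0.22, edgeR adjusted p = 0.722), and -0.041 with the trend removed.

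Endothelial-like cells were lower still in Fgfr1, with 23.2 and 19.3 CPM in deligated and 19.4 and 14.6 CPM in homeostatic libraries. On the log2 scale the fold change was 0.34 (SE 0.18, edgeR adjusted p = 0.183), and 0.50 with the trend removed (adjusted p = 0.0667). Without deligated library 2 it was 0.53 and passed the test (edgeR adjusted p = 1.28e-05), and over all settings it ran from 0.15 to 0.54. NK/innate lymphoid-like cells were near the floor, with 0.842 and 1.67 against 0.791 and 0.256 CPM. Fibroblast-like cells held both the ligand Fgf2 and the receptor Fgfr1 in every library, and 58.9% to 76.9% of each library's Fgfr1 UMIs.

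Fgfr3 was an endothelial-like gene with no detected group difference. It was at 18.0 and 16.1 CPM in deligated and 17.0 and 15.8 CPM in homeostatic endothelial-like cells, and the groups overlapped. The log2 fold change was 0.08 (SE 0.12, edgeR adjusted p = 0.651), and -0.05 with the trend removed. Endothelial-like cells held 90.4% to 97.8% of the Fgfr3 UMIs of each library. The epithelial-like cluster c7 had 9.72 and 12.7 CPM in the homeostatic libraries from 3 and 7 UMIs, and 0 UMIs in its few deligated cells. Among whole classes, erythroid-like cells came next, at 8.26 and 6.47 against 3.63 and 5.32 CPM from 2 to 7 UMIs. Those cells also held endothelial markers: all 8 were detected and summed to 11633 and 8094 CPM in deligated and 4424 and 4820.2 CPM in homeostatic libraries, and their part in the Fgfr3 counts was not tested. Fibroblast-like cells had 0.209 to 0.597 CPM from 1 to 4 UMIs.

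Within the endothelial-like class, Fgfr3 and Fgfr1 were both highest in clusters led by Sema3g, Edn1 and Cldn5, genes known from arterial endothelium. In the deligated cluster of this kind (c8) Fgfr3 was at 53.2 and 58.7 CPM, and in the homeostatic one (c27) at 51.6 and 52.7 CPM. The large clusters c5 and c23 had 13.9 and 12.2 CPM in deligated and 13.2 and 11.5 CPM in homeostatic libraries. Fgfr1 followed the same order, with 47.4 and 41.2 CPM in c8 and 39.3 and 40.7 CPM in c27, against 20.3 and 17.3 CPM in c5 and 17.3 and 12.2 CPM in c23. In each library the Sema3g cluster was above the large cluster for both receptors. Clusters were made without the FGF genes, and cells of 1 library are not replicates, so no test was made of this order.

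**Figure D3:**
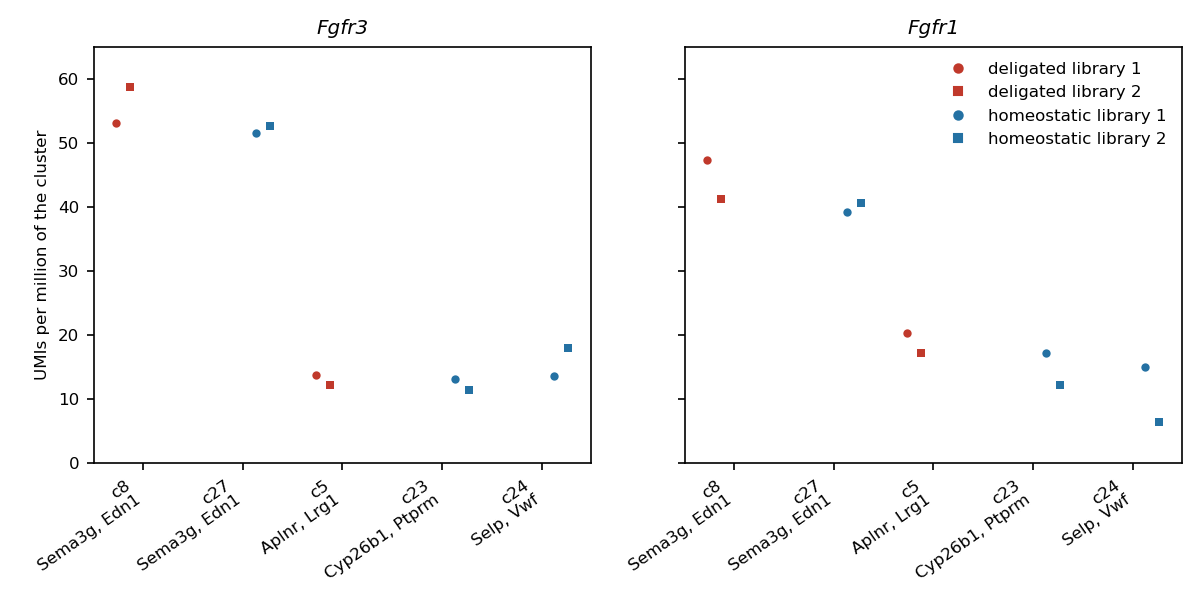
Fgfr3 (left) and Fgfr1 (right) in CPM, over the UMIs of a cluster (y axis, linear from 0) for the 5 endothelial-like clusters (x axis, with leading genes), 1 point per library with at least 20 cells of the cluster. The clusters led by Sema3g and Edn1 stand above the others, at 51.6 to 58.7 for Fgfr3.

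Fgfr2, the receptor for Fgf7 and Fgf10 in epithelium, differed most between the groups of the 7 genes. Endothelial-like cells had 6.10 and 3.65 CPM in deligated and 70.6 and 73.1 CPM in homeostatic libraries. Fibroblast-like cells had 7 and 4 UMIs (1.46 and 0.597 CPM) against 149 and 120 UMIs (77.1 and 64.6 CPM). NK/innate lymphoid-like cells had 0.337 and 0.304 against 38.0 and 34.9 CPM. In each of these classes the homeostatic libraries were far above the deligated ones. Summed epithelial markers were likewise higher in the homeostatic libraries of every class tested. The 12 markers summed to 24.3 and 36.0 against 632 and 657 CPM in endothelial-like, to 9.94 and 47.2 against 965 and 607 CPM in mural-like, and to 174 and 231 against 728 and 775 CPM in NK/innate lymphoid-like cells, with 0 to 9 of the 12 at 0. In T cell-like cells they summed to 57.1 and 161 against 606 and 708 CPM. Other markers were higher in the deligated libraries. NK/innate lymphoid markers summed to 713 and 1545 against 273 and 213 CPM in T cell-like cells. Fibroblast markers summed to 1044 and 970 against 473 and 420 CPM in mural-like cells. The part of all these markers in the Fgfr2 difference was not tested.

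The log2 fold change of Fgfr2 was -3.88 (SE 0.22, edgeR adjusted p = 8.49e-05) in endothelial-like, -6.10 (SE 0.31, edgeR adjusted p = 1.43e-06) in fibroblast-like and -6.70 (SE 0.22, edgeR adjusted p = 1.08e-05) in NK/innate lymphoid-like cells. With the intron-length trend removed the values were -0.67 (adjusted p = 0.0433), -2.61 (adjusted p = 0.00177) and -2.84 (adjusted p = 0.000858). When the RefSeq span of Fgfr2 was used in that trend, a setting added after the data were seen, they were -3.49, -5.56 and -5.95. The size that remained therefore depended on the gene model used for the trend. All 33 genes with more than 1000 kb of intron tested in fibroblast-like cells were called lower, with a median of -3.77. In endothelial-like cells all 37 such genes were called lower, with a median of -4.53, so on its GENCODE length Fgfr2 fell less there than the median gene of its length class. The RefSeq span of 104.4 kb lies near the bound of 100 kb. Endothelial-like genes with 30 to 100 kb and above 100 kb of intron had medians of -0.16 and -0.83, and Fgfr2 fell more than either. Of 23 such genes in NK/innate lymphoid-like cells 78.3% were called lower, with a median of -4.21. Removing the trend did not bring these genes to 0: their medians were then -0.88, -2.29 and -1.13, with 51.5%, 45.9% and 34.8% still called lower. The corrected Fgfr2 value lay below that median in fibroblast-like and NK/innate lymphoid-like cells and above it in endothelial-like cells.

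Several deligated classes had no Fgfr2 UMI at all. Mural-like cells had 0 deligated UMIs against 37 and 31 homeostatic ones (61.0 and 50.5 CPM), a level at least 88.6-fold lower in deligated cells when 3 UMIs over the group are taken as the floor. T cell-like cells had 0 against 24 and 33 UMIs (23.5 and 33.1 CPM), at least 81.7-fold lower. Schwann-like (0 against 16 and 10 UMIs) and macrophage-like cells (0 against 138 and 109 UMIs) were at least 15.3-fold and 9.08-fold lower by the same floor. The edgeR adjusted p was 6.12e-06 in mural-like and 0.000192 in T cell-like cells.

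Homeostatic Fgfr2 was at 23.5 to 102 CPM in every named class, lymphocytes and macrophages included, for which Fgfr2 is not a known marker. Of its homeostatic UMIs 46.4% and 49.8% were in endothelial-like cells, against 84.0% and 85.1% in the deligated libraries. In epithelial-like cells, the textbook site of the receptor, it was at 34.9 and 5.47 CPM in deligated libraries from 8 and 1 UMIs, and at 37.1 and 41.6 CPM in homeostatic libraries. The mix of this class differed between the groups. Cluster c7 held 183106 of its 229467 and 38307 of its 182875 UMIs in deligated libraries. In homeostatic libraries c7 held 308694 of 5115910 and 552348 of 5378290, so the class levels do not compare like cells. Of the homeostatic clusters with at least 20 cells, the Krt14 and Trp63 cluster c7 was highest, at 191 and 147 CPM. Whether homeostatic UMIs outside the epithelium come from Fgfr2 transcripts or from the 21 same-strand genes under its wide model was not tested.

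**Figure D4:**
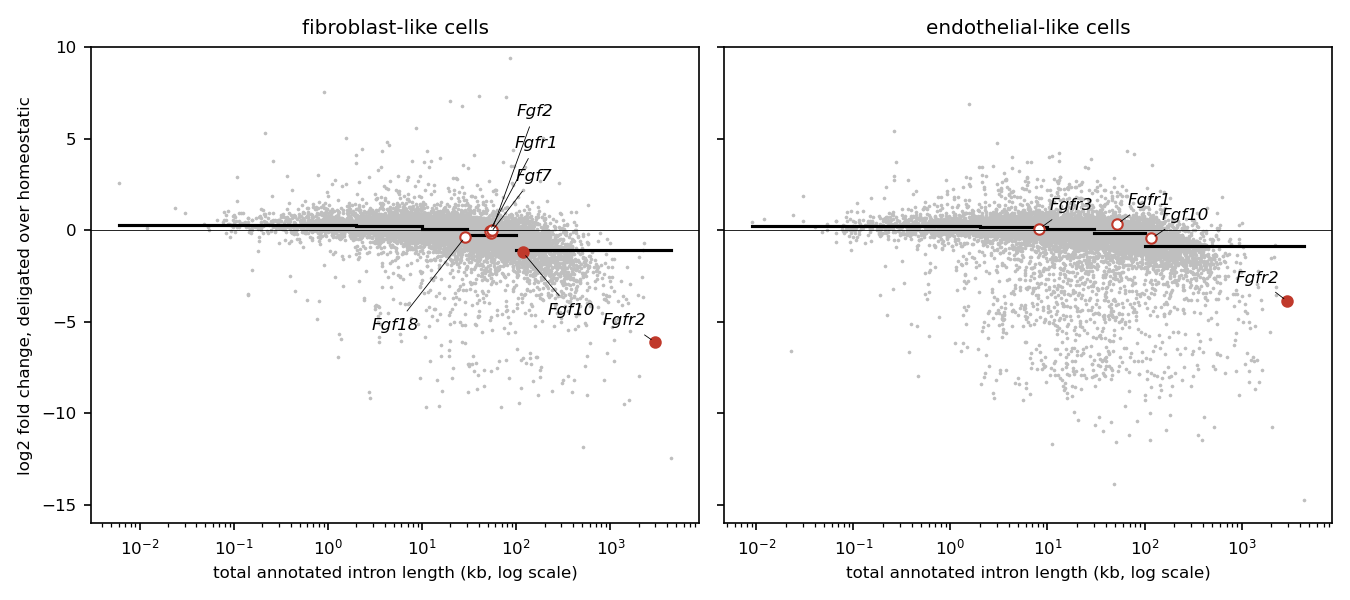
Log2 fold change, deligated over homeostatic (y axis), against total annotated intron length (x axis, kb, logarithmic) for all genes tested in fibroblast-like (left) and endothelial-like cells (right). Black lines are medians of 5 length bins, red discs are FGF genes that passed edgeR's test and open circles those that did not; Fgf10 on its GENCODE length lies near the median of its bin and Fgfr2 at the far right at -6.10 and -3.88.

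Over the 5 classes with at least 100 cells in every library, the genes of the 7 that passed the test were all lower after deligation. In fibroblast-like cells 6 of the 7 were tested and 2 (Fgf10 and Fgfr2) were called, beside 27.6% of all genes tested (18.6% lower and 8.99% higher). In endothelial-like cells 1 of 4 was called (Fgfr2), beside 35.5% of all genes (22.4% lower and 13% higher). In mural-like cells 1 of 3 was called (Fgfr2), beside 8.35% of all genes (6.83% lower and 1.52% higher). Fgfr2 was the only one tested, and was called, in NK/innate lymphoid-like (42.6% of genes called, 26.6% lower and 16% higher) and T cell-like cells (23.4% called, 16.2% lower and 7.15% higher). With the intron-length trend removed the same genes were called, beside 17.7% of genes in fibroblast-like, 30.2% in endothelial-like, 4.63% in mural-like, 29.8% in NK/innate lymphoid-like and 12.1% in T cell-like cells. Fgf2, Fgf7 and Fgf18 were not called in any class.

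**Figure D5:**
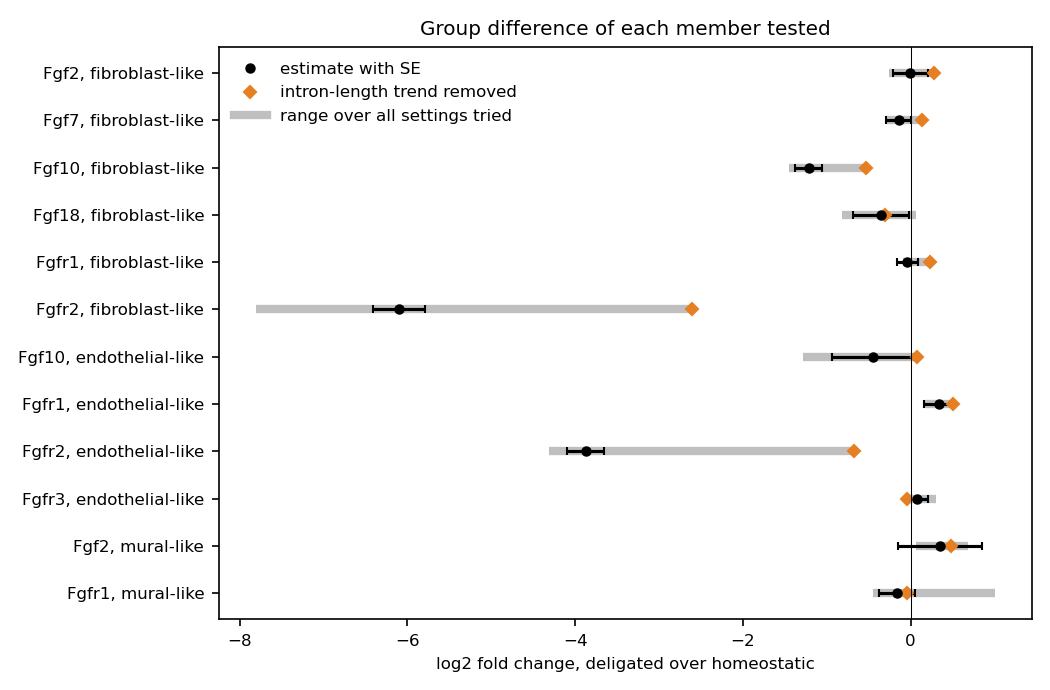
Log2 fold change, deligated over homeostatic (x axis), of each FGF gene tested in fibroblast-, endothelial- and mural-like cells (y axis), with its SE (black), the value with the intron-length trend removed (orange) and the range over all settings tried (grey). Fgf10 and Fgfr2 in fibroblast-like cells and Fgfr2 in endothelial-like cells stay below 0 throughout; Fgfr2 in mural-like cells, with no deligated UMI, is not drawn.

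The difference between classes was tested for Fgfr2 with a term for class by group and the library as a block. Its group difference was larger in fibroblast-like than in endothelial-like cells by -2.08 on the log2 scale (SE 0.37, edgeR adjusted p = 0.0062), beside 5.37% of all genes called. With the trend removed this was -1.89 (adjusted p = 0.0151). It was also larger in mural-like than in endothelial-like cells (edgeR adjusted p = 0.00394, 0.871% of genes called), where the deligated mural-like count of 0 makes the fitted size no measure. That call was lost without deligated library 1 (edgeR adjusted p = 0.126). Fibroblast-like and mural-like cells did not pass (edgeR adjusted p = 0.221, 1.33% of genes called). For Fgf10 the fibroblast-like minus endothelial-like difference was -0.68 (SE 0.48, edgeR adjusted p = 0.474), with 21 and 26 endothelial-like UMIs in all. It was -1.38 without deligated library 1 and 0.36 without deligated library 2, so which deligated library was kept set its direction.

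Most other FGF ligands were not detectable enough to test. Of 24 further ligands, receptors and binding proteins, 5 were tested in fibroblast-like cells and 2 were lower (18.6% of all genes were lower). Fgf1, a ligand of all FGF receptors, was at 8.56 and 5.97 CPM in deligated and 18.1 and 16.7 CPM in homeostatic fibroblast-like cells (log2 fold change -1.22, edgeR adjusted p = 0.0143), and -0.73 without a call once the trend was removed. Without homeostatic library 1 or 2 Fgf1 did not pass either (edgeR adjusted p = 0.111 and 0.0767), and its call was lost in 5 of 13 alternatives. Fgf12, an intracellular family member that is not secreted, was at 0.626 and 1.05 against 15.5 and 11.8 CPM (log2 fold change -3.89, edgeR adjusted p = 0.000167), and -1.84 with the trend removed. The median over the 5 tested was 0.57, beside 0.00 over all genes tested. In endothelial-like cells 1 of the 5 tested was higher and 1 lower (13% and 22.4% of all genes). Fgf13, which like Fgf12 is not secreted, was lower at 1.51 and 0.986 against 11.3 and 10.97 CPM (log2 fold change -3.15, edgeR adjusted p = 0.000306), and -1.49 with the trend removed. Fgfbp3, a secreted FGF carrier, was higher at 11.6 and 15.3 against 9.88 and 9.71 CPM (log2 fold change 0.48, edgeR adjusted p = 0.0474), and 0.27 without a call once the trend was removed. Its call was also lost without deligated library 2, homeostatic library 1 or homeostatic library 2 (edgeR adjusted p = 0.0572, 0.228 and 0.226), in all in 7 of 13 alternatives.

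Feedback and target genes of FGF signalling, which record pathway activity but also answer to other growth factors, gave calls in both directions. In endothelial-like cells 2 of the 10 tested were higher and 1 was lower, with 13% of all genes higher and 22.4% lower. Their median was 0.13 beside 0.00 over all genes. Dusp6, the phosphatase that dampens ERK, was at 108 and 161 CPM in deligated and 74.1 and 71.3 CPM in homeostatic endothelial-like cells, and both deligated values were higher. Its log2 fold change was 0.90 (SE 0.16, edgeR adjusted p = 0.00688), and 0.70 with the trend removed. Immediate-early genes, which many stimuli and cell handling induce, were higher in the same cells: Fos was at 1355 and 1665 against 636 and 612 CPM, and Egr1 at 419.7 and 469.8 against 174 and 165 CPM (edgeR adjusted p = 0.000331 and 0.000115). Both were named after their values were seen, and their part in the Dusp6 difference was not tested. Spry4, a Sprouty inhibitor, was at 80.3 and 90.1 against 72.4 and 72.4 CPM (log2 fold change 0.25, edgeR adjusted p = 0.0478), and its call was lost with the trend removed and without homeostatic library 1 or 2 (edgeR adjusted p = 0.414 and 0.366), in all in 9 of 13 alternatives. Spred2 was lower at 57.5 and 70.9 against 98.7 and 103 CPM, also with no call once the trend was removed.

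In fibroblast-like cells 1 of the 11 feedback and target genes tested was higher and 1 was lower, with a median of -0.10, beside 27.6% of all genes called. Etv1, an ETS transcription factor induced by FGF signals, was at 67.0 and 61.3 CPM in deligated and 41.9 and 41.4 CPM in homeostatic libraries. Its log2 fold change was 0.68 (SE 0.15, edgeR adjusted p = 0.01), and 1.12 with the trend removed. Without homeostatic library 1 or 2 it did not pass (edgeR adjusted p = 0.137 and 0.128). The lower gene was Spred2 (-0.82, edgeR adjusted p = 0.00404), which did not pass with the trend removed (-0.26, adjusted p = 0.315) or without homeostatic library 1 (adjusted p = 0.0864). In NK/innate lymphoid-like cells 1 of 7 was higher (Dusp6) and 2 were lower (Spred2 and Spred1), beside 42.6% of all genes called, and 1 lower call (Spred2) was left with the trend removed. Mural-like cells had no call among 9 of these genes (8.35% of all genes called) and T cell-like cells none among 5 (23.4%).

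Signal transduction genes gave more lower than higher calls, as all genes did (18.6% lower and 8.99% higher in fibroblast-like, 22.4% and 13% in endothelial-like cells). Of 18 tested in fibroblast-like cells 2 were higher and 6 lower, with a median of -0.28, and of 19 in endothelial-like cells 2 were higher and 7 lower, with a median of -0.11. With the trend removed 1 was higher and 3 lower in fibroblast-like cells (17.7% of all genes called), and 4 were higher and 4 lower in endothelial-like cells (30.2%). Frs2, the docking protein of FGF receptors, was at 34.8 and 33.6 against 69.9 and 66.2 CPM in fibroblast-like cells (log2 fold change -0.93, edgeR adjusted p = 0.00136). In endothelial-like cells Frs2 was at 21.2 and 19.7 against 56.3 and 62.6 CPM (log2 fold change -1.52, edgeR adjusted p = 0.000253). With the trend removed these were -0.54 and -1.26.

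Heparan sulphate genes, which build or carry the co-receptor, gave calls in both directions. In fibroblast-like cells 3 of the 22 tested were higher and 7 lower, beside 27.6% of all genes called. With the trend removed 9 were higher and 3 lower, beside 17.7% of all genes. In endothelial-like cells 4 of 18 were higher and 4 lower (35.5% of all genes called), and 5 higher and 4 lower with the trend removed (30.2%). The fibroblast-like genes called higher were the core proteins Sdc3, Sdc1 and Gpc1. Each lost its call in 1 alternative, Sdc3 and Sdc1 with thinned sums (edgeR adjusted p = 0.0658 and 0.173) and Gpc1 without homeostatic library 1 (edgeR adjusted p = 0.108). Sdc3 was at 39.6 and 41.2 against 12.4 and 14.0 CPM (log2 fold change 1.67, edgeR adjusted p = 0.00021), and Sdc1 at 48.2 and 51.5 against 27.4 and 24.8 CPM (0.99, edgeR adjusted p = 0.00194). With the trend removed these were 1.72 and 0.94. Ext1, which polymerises the chain, was lower at 119.8 and 94.6 against 426 and 426 CPM (-1.93, edgeR adjusted p = 2.61e-05), and -0.56 with the trend removed. Gpc6, a long gene for a glypican, was at 113 and 94.2 against 636 and 625 CPM (-2.55), and 0.03 with the trend removed.

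Likeness to other genes was measured by the Pearson correlation of log levels over 32 sums (8 classes in 4 libraries), among 12432 genes; the sums share libraries and depth, so the values are descriptions. Fgf10 was most like Larp6 (r = 0.956), Slc43a1 and Rnf182, and Fgf7 most like Aox3 (0.931), Arsj and Sult5a1. Fgf2 was most like Col27a1 (0.980), Col14a1 and Timp2, collagen and matrix genes, and Fgfr1 most like Fstl1 (0.971), Sspn and Rhobtb3. Fgf18 was most like Gsc (0.986), Gabra3 and Mab21l2, over 220 UMIs in all. Fgfr3 was most like Cdiptos (0.903), Tox3 and Gipc3. Fgfr2 was most like Cmss1 (0.922), Cdk8 and Il31ra, none of which is a receptor tyrosine kinase.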

How the data were processed

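Single cells of 2 deligated and 2 homeostatic libraries were used. The deposited matrices hold raw UMI counts per gene and barcode, made by the authors with Cell Ranger, version 6.0.1 (deligated) and 7.0.0 (homeostatic) per the file headers. The submitters' processing notes name Cell Ranger 6.0.1, Seurat and mm10 for all. Barcodes had at least 500 UMIs in the deposited files.

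Cells with at least 300 genes and at most 10% mitochondrial UMIs were retained. Doublets were scored (Scrublet method) and removed at 0.8% per 1000 cells, leaving 33695 of 39558 barcodes. Clustering (scanpy 1.11.5, 3000 variable genes, 30 components, 20 neighbours, Leiden resolution 1.0, no batch correction) left out 86 FGF-related genes. Clusters were named by at least 3 markers, each in at least 10% of cells and 2.0-fold up. The names were rebuilt here, and the naming thresholds were set with the clusters in view.

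For each class in each library, UMI counts were summed. Classes with at least 100 cells in every library were tested with edgeR 4.0.16 (quasi-likelihood, TMM, filterByExpr; R 4.3.3), Benjamini-Hochberg adjusted over all genes tested, threshold 0.05. The intron-length trend was removed with a smooth fit for each library of a class, entered as offsets. It fitted the log2 CPM of a gene, minus its mean over the libraries, on log intron length. Of the 31053 genes, 31011 (99.9%) matched GENCODE M21. The edgeR step was tested on simulated fibroblast-like data: 62 of 98 genes changed 2-fold and 96 of 99 changed 4-fold were recovered, with 28 false calls among 11062. With an intron-length trend simulated too, 1558 of 11123 unchanged genes were called, and 27 once the trend was removed. The simulated trend was a straight line on log intron length, the same for every gene of a length. It could therefore not test the removal on the curved and more scattered trend of these data. There 45.2% of fibroblast-like genes above 100 kb of intron and 72.7% above 1000 kb were still called after removal. DESeq2 1.42.0, other filters, thinning to 1000 UMIs, cells with at least 1000 UMIs and at most 5% mitochondrial UMIs, doublets kept, resolution 2.0, replicate blocks and leaving out each library were alternatives. Of the pathway lists, at most 3 called genes per direction and class were named. The 7 genes and the lists were chosen with earlier results of these data known.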

Additional observations from a re-analysis of the deposited data

Results flagged for a closer look

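The fall of Fgfr2 after deligation differed between endothelial-like cells and each of 2 other classes. The class by group term gave an edgeR adjusted p of 0.0062 for fibroblast-like against endothelial-like cells, with 7 and 4 deligated UMIs in fibroblast-like and 89 and 63 in endothelial-like cells. For mural-like against endothelial-like cells the edgeR adjusted p was 0.00394, with 0 deligated UMIs in mural-like cells. That call was lost without deligated library 1 (edgeR adjusted p = 0.126), and fibroblast-like against mural-like cells did not pass (edgeR adjusted p = 0.221). In these 3 classes the homeostatic levels were of similar size, between 50.5 and 77.1 CPM. Deligated fibroblast-like cells were the deeper ones, with median UMI counts of 13087 and 9256.5 against 5835 and 4447 in endothelial-like cells. The part of the annotated length of Fgfr2 in this difference was not tested beyond the removal of the trend within each class.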

How the results depend on the processing

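Of 200 values over 15 results on the 7 genes, 173 kept their direction and their side of the threshold, 2 newly passed it, none lost its call and 25 changed sign. These are the fold changes within a class. Of the differences between classes, Fgfr2 in mural-like against endothelial-like cells lost its call without deligated library 1 (edgeR adjusted p = 0.126). Fgf10 in fibroblast-like cells and Fgfr2 in the 5 classes kept their calls wherever they could be tested. With thinned sums Fgfr2 did not pass the count filter in mural-like cells, leaving 0 calls, and none of the 7 genes could be tested in T cell-like cells. Fgf18 in fibroblast-like cells rested on 26 to 73 UMIs a library and Fgf2 in mural-like cells on 4 to 27, so small differences there may have been missed. Which sizes could be detected at these counts was not tested. With 2 libraries a group, the counts of all genes called moved widely, and the cause was not tested except where samples or counts were removed.

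Genes called numbered 3204 in fibroblast-like cells, but 2051 with DESeq2, 2053 with the intron-length trend removed, 1016 with thinned sums and 1381 to 4523 without 1 library. In endothelial-like cells there were 4695, but 2507 thinned and 2077 to 7855 without 1 library, and in NK/innate lymphoid-like cells 5066, but 2522 thinned and 3047 to 4252. In mural-like cells there were 819, but 496 with DESeq2, 1363 with no count filter, 454 with the trend removed, 230 thinned and 308 to 1077 without 1 library. In T cell-like cells there were 2338, but 1421, 1216 and 766 with DESeq2, trend removed and thinned, and 702 to 3229 without 1 library. Of the 7 genes, 1 to 2 were called in endothelial-like cells without 1 library (Fgfr1 was added without deligated library 2). For fibroblast-like against endothelial-like cells 1 gene differed, but 2 with no count filter and 2 with stricter cells (Fgf2 added), and 1 to 2 without 1 library. For mural-like against endothelial-like cells it was 0 to 1 without 1 library.

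The values that changed sign were log2 fold changes with no call, apart from Gpc6, which went to 0.028 with the trend removed. Fgf2 in fibroblast-like cells was at 0.023 with DESeq2, 0.041 with no count filter, 0.28 with the trend removed, 0.084 with stricter cells, 0.046 with doublets kept, 0.057 thinned, 0.18 among cells with no Pi16 or Dpp4 UMI and -0.25 to 0.26 without 1 library. Fgf7 there was at 0.13 with the trend removed, 0.0030 thinned and -0.29 to 0.029 without 1 library, and Fgf18 at -0.82 to 0.068 without 1 library. Fgfr1 there was at 0.23 with the trend removed, 0.0027 with no count filter, 0.013 with doublets kept and -0.091 to 0.022 without 1 library. In endothelial-like cells Fgf10 was at 0.072 and Fgfr3 at -0.050 with the trend removed, and without 1 library they ran from -1.29 to 0.020 and from -0.046 to 0.22. Fgfr1 in mural-like cells was at 1.01 with stricter cells, 0.066 thinned and -0.45 to 0.17 without 1 library.

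Replicate numbers did not pair the libraries: same-numbered libraries correlated in their deviations at -0.291 to 0.0159 over the 5 classes. With the replicate number as a block, Fgf10 in fibroblast-like cells was at -1.23 (edgeR adjusted p = 2.7e-13), Fgfr2 in endothelial-like cells at -3.88 and Fgf2 in fibroblast-like cells at 0.0017, and no call on the 7 genes changed. Genes called under that block numbered 3691 in fibroblast-like and 4459 in endothelial-like cells. Crossing the numbers, added after the data were seen, gave 3333 and 5319.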
